A study of Bos taurus with 15 samples.

Results

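Bovine blastocysts grown in culture, after an automatic procedure had stripped their cumulus cells, were compared with blastocysts recovered in vivo across all genes measured. The comparison used 10 of the 15 libraries of poly(A) RNA from bovine (Bos taurus) blastocysts at day 7, with 5 libraries in each group, assigned to groups by their labels. In the automatic group the procedure was applied to zygotes, and the embryos were then cultured in SOF, a synthetic medium modelled on oviduct fluid. In vivo blastocysts developed in the animal and were collected on day 7, so the groups differ in culture as well as in denudation, and these cannot be told apart here. The other 5 libraries came from blastocysts cultured after manual denudation. They were also cultured and denuded, so they do not separate culture from denudation. They entered the fit for their spread, and their levels are given beside the automatic libraries for some genes only. Breed, genotype and animal are not stated in the labels, nor the number of embryos behind each library. Nothing in the labels ties the libraries to separate cultures or donors. The p-values therefore measure spread among libraries that may be partly technical.

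By day 7 a bovine embryo has formed a blastocyst: an outer epithelium, the trophectoderm, encloses a fluid-filled cavity and an inner cell mass that holds epiblast and hypoblast precursors. The trophectoderm carries keratins and an absorptive apical surface, begins steroid and prostaglandin synthesis, and forms the embryonic side of the placenta. Cells short of amino acids or under other strain activate the integrated stress response. In it the factor ATF4 induces genes of amino acid synthesis, amino acid uptake and tRNA charging.

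Levels are given as CPM, counts scaled to a library of 1e6 and corrected for composition, with the libraries of a group in the order 1 to 5. They compare libraries for 1 gene and are not corrected for gene length. Fold changes are on the log2 scale as automatic minus in vivo with their SE, so a negative value means a lower level after automatic denudation. A gene was called at an adjusted p under 0.05 in edgeR's quasi-likelihood test with Benjamini-Hochberg adjustment over all 11578 genes tested.

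Library totals were 28.3 ± 5.67 M counts in the automatic and 31.4 ± 8.72 M counts in the in vivo group (SD, n = 5 each; M is 1e6). The number of genes with at least 10 counts ranged from 6977 to 12053 after automatic denudation and from 7293 to 12611 in vivo. Automatic libraries 2 and 4 and in vivo libraries 2 and 4 lay under 9000 such genes and stood apart from the others of both groups. They also had the highest mitochondrial shares of counts, 8.18% and 9.38% after automatic denudation and 13.4% and 10.997% in vivo, against 3.29% to 6.09% in the other 6 libraries. The groups differed by -72.6 genes detected (two-sided exact permutation p = 0.944) and by -1.20 percentage points of mitochondrial share (two-sided exact permutation p = 0.587). The low-detection libraries fall equally in both groups. For some genes and lists that moved without them, values are given both ways, the latter as 3 against 3 libraries in a fit whose all-gene median was 0.0025. Other values are from the full fit alone and may also move without these libraries. Of the lineage markers examined, KRT8, KRT18, TFAP2C, POU5F1, NANOG and GATA6 were present in all 10 libraries, while CDX2 was at 0 in automatic library 4 and SOX17 reached at most 0.65 CPM.

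Over the whole transcriptome no separation of the groups was detected. The mean distance between automatic and in vivo libraries minus the mean distance within groups was -0.00245 on log2 CPM (one-sided exact permutation p = 0.365). In both groups the low-detection libraries lay on one side of the first principal component (35.2% of variance) and the others on the opposite side. Without the low-detection libraries the difference in distance was 0.113 (one-sided exact permutation p = 0.2). With 20 splits, each sharing its value with its mirror image, that test could not reach a p under 0.05 and decides nothing on separation. Of 11578 genes, 2 were called, or 0.0173%: CHAC1 rose and LRP2 fell. Unadjusted p lay under 0.05 for 308 genes with higher and 313 with lower levels after automatic denudation, 2.66% and 2.7% of those tested. Together these are 621 genes (5.36%), close to the share of 0.05 that such a threshold takes where no gene differs. The calls of each direction are 0.00864% of the genes. On the same libraries DESeq2 called 87 genes (0.751%) and limma-voom with quality weights 95 (0.821%).

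**Figure D1:**
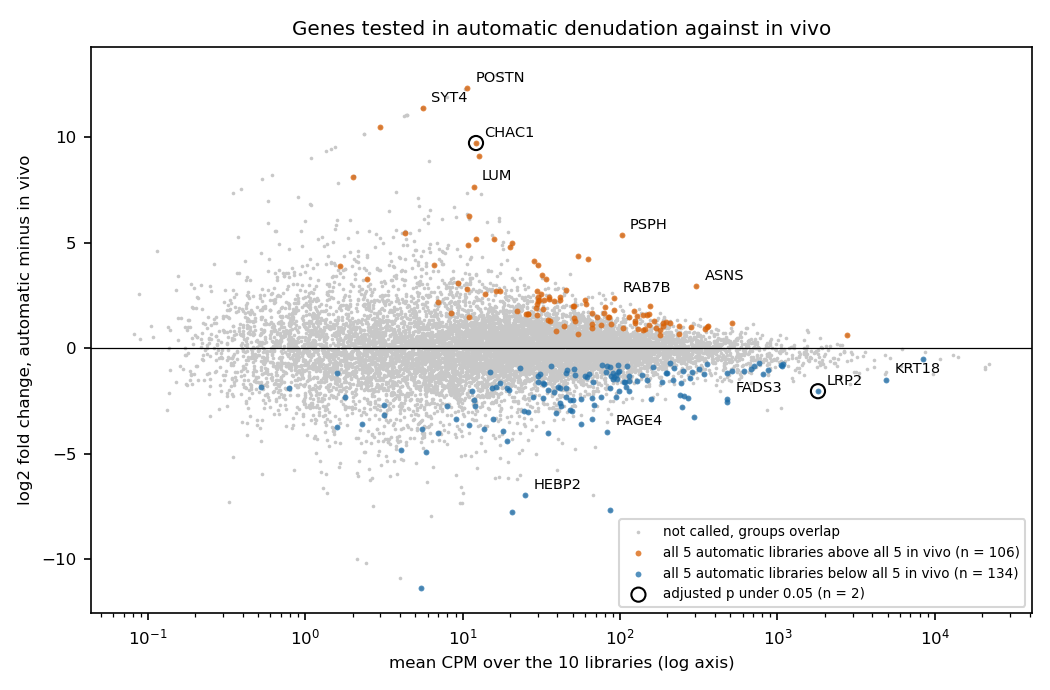
Log2 fold change (automatic minus in vivo) against mean CPM over the 10 libraries, on a log axis, with 1 point for each of 11578 genes tested. Black rings mark the called genes, and colours the genes whose 5 automatic and 5 in vivo libraries did not overlap. CHAC1 and LRP2 are the 2 called genes, and the median of all genes is -0.06.

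The size of the differences was bounded for few genes. For 220 genes (1.9%) the 95% interval excluded differences beyond 2-fold in either direction, and for 2189 (18.9%) beyond 4-fold. Most genes that miss the threshold are therefore not shown to be alike in the groups.

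CHAC1, an ATF4 target that encodes an enzyme breaking down glutathione, was present in every automatic library and nearly absent in vivo. Its levels there were 27.9, 31.4, 15.2, 13.8 and 33.02 CPM, and in vivo 0, 0, 0.102, 0 and 0 CPM, the single non-zero in vivo value resting on 5 counts. Every automatic library lay above every in vivo library. The log2 fold change was 9.71 ± 1.59 (edgeR adjusted p = 0.0424). It was 9.28 without the low-detection libraries (edgeR adjusted p = 0.0395), but the call was lost in 13 of the 15 fits that each left out 1 library, with an adjusted p up to 0.210. It was also lost with library size alone, without a filter, with the replicate number as a block and with only the 10 libraries compared (adjusted p = 0.140, 0.0568, 0.0743 and 0.197). After manual denudation CHAC1 lay at 17.9 ± 12.5 CPM (SD, n = 5).

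LRP2, or megalin, a large endocytic receptor of absorptive apical surfaces, was the other called gene. After automatic denudation it lay at 637, 613, 1005, 676 and 612 CPM and in vivo at 2319, 2261, 2783, 4118 and 3056 CPM. The groups did not overlap, and the highest automatic library lay well below the lowest in vivo library. LRP2 fell by 2.04 on the log2 scale (SE 0.31, edgeR adjusted p = 0.0294), a ratio of in vivo to automatic mean of 4.10. Without the low-detection libraries the log2 fold change was -1.84 and the call was lost (edgeR adjusted p = 0.113). It was also lost in 9 of the 15 fits that each left out 1 library, with an adjusted p up to 0.161, and with scaling by library size alone (adjusted p = 0.230). Manual libraries lay at 1692 ± 669 CPM (SD, n = 5), with a mean between those of both groups, and automatic against manual was not called (log2 fold change -1.26, unadjusted p = 0.000507).

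In the integrated stress response list, 1 of 20 genes tested was called, CHAC1. Levels were higher after automatic denudation for 15 of the 20, with a median log2 fold change of 0.995, beside 47.6% of all genes tested and a median of -0.06. ASNS, which makes asparagine, lay at 766, 273, 427, 129.9 and 1102 CPM after automatic denudation and at 107, 2.98, 86.1, 89.4 and 69.04 CPM in vivo. Its groups did not overlap, although automatic library 4 came close to in vivo library 1 (log2 fold change 2.93 ± 0.70, edgeR adjusted p = 0.363). ATF4 itself lay at 797, 486, 608, 529 and 897 CPM against 293, 257, 312, 577 and 294 CPM, with overlap through in vivo library 4 alone (log2 fold change 0.94 ± 0.34, edgeR adjusted p = 0.732). After manual denudation ASNS lay at 353 ± 202 CPM and ATF4 at 659 ± 226 CPM (SD, n = 5).

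Serine synthesis runs from glycolytic intermediates through PHGDH, PSAT1 and PSPH. The 18 serine and folate one-carbon enzymes were evenly divided, with 9 higher, 9 lower, none called and a median of 0.04. Without the low-detection libraries 12 were higher and 6 lower, with a median of 0.40. PSPH, the last enzyme of the path, stood out among them with 126, 336, 149, 149 and 240.03 CPM after automatic denudation and 5.75, 0, 7.96, 0 and 10.6 CPM in vivo. All automatic libraries lay above 100 CPM and all in vivo libraries below 11 CPM, 2 of them at 0 (log2 fold change 5.36 ± 1.13, edgeR adjusted p = 0.199). Manual libraries held PSPH at 149 ± 46.6 CPM (SD, n = 5). PHGDH, the first enzyme, lay at 213, 112, 298, 0 and 223 CPM against 12.8, 387, 11.3, 0.137 and 11.6 CPM. In vivo library 2 had the highest PHGDH of all 10 and automatic library 4 had none. PSAT1, the second enzyme, followed a like pattern, with 224, 140.5, 266, 93.5 and 297 CPM against 42.01, 480.02, 46.5, 98.3 and 93.2 CPM. Both overlapped through these low-detection libraries and were not called.

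Without the low-detection libraries, 9 of 12329 genes were called, 0.073%, with 6 higher and 3 lower after automatic denudation. In that fit PSPH rose by 4.42 ± 0.41 on the log2 scale (edgeR adjusted p = 0.00101) and PHGDH by 4.37 ± 0.54 (edgeR adjusted p = 0.0117). CHAC1, ASNS, PSAT1 and the glycyl-tRNA synthetase GARS1 were the other 4 higher genes, ASNS with a log2 fold change of 3.14, PSAT1 with 2.13 and GARS1 with 1.99 (edgeR adjusted p = 0.0492 for each of these 3). Of the 18 serine and one-carbon enzymes 3 were thus called higher, and of 21 integrated stress response genes 2, beside 0.0487% of all genes in that fit. The calls in the lower direction were 0.0243% of all genes. The lower genes were IFI30, PAG2 and SCIN, with log2 fold changes of -4.12, -3.45 and -3.40 (edgeR adjusted p = 0.0196, 0.0305 and 0.0433). These 9 calls rest on 3 libraries against 3.

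**Figure D2:**
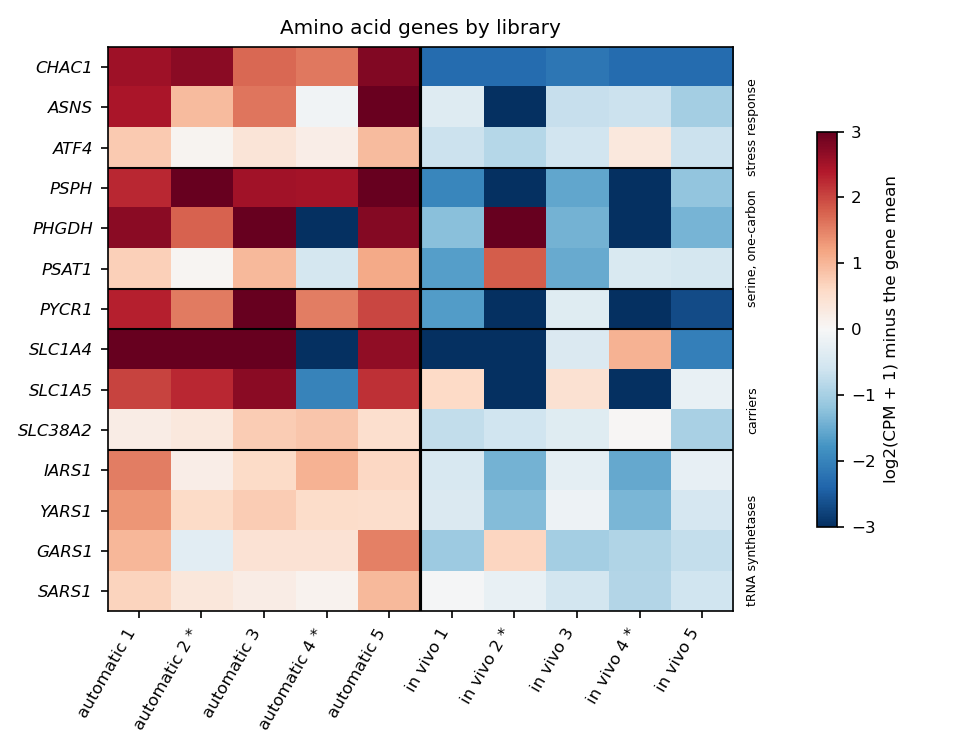
Log2(CPM + 1) of 14 amino acid and stress response genes named in the text, in each of the 10 libraries and centred on the gene's mean, with genes in lines and libraries in columns; an asterisk marks the 4 low-detection libraries, and colours stop at 3 in either direction. PSPH, ASNS and CHAC1 are high in the automatic columns, while PHGDH and PSAT1 are high in in vivo library 2 and PHGDH is low in automatic library 4.

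Amino acid uptake and tRNA charging showed no called gene. Of 22 amino acid transporters tested, 16 were higher after automatic denudation (median 1.004), and of 20 cytosolic aminoacyl-tRNA synthetases 13 were higher (median 0.70). SLC38A2, a carrier of small neutral amino acids, lay at 387, 409.9, 564, 589.5 and 467 CPM after automatic denudation and at 197, 219, 255, 336 and 168 CPM in vivo, without overlap (log2 fold change 1.04 ± 0.33, edgeR adjusted p = 0.645). The neutral amino acid exchanger SLC1A5 lay at 113, 135, 182, 6.03 and 127 against 41.3, 1.76, 37.6, 0.0915 and 22.9 CPM, and its relative SLC1A4 at 113, 137, 109, 0.0553 and 85.03 against 0.4305, 0.0765, 9.16, 27.1 and 2.31 CPM. In both, automatic library 4 lay among or below the in vivo libraries and the other 4 automatic libraries above all of them.

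For the synthetases IARS1, YARS1 and SARS1, all automatic libraries lay above all in vivo libraries, as for 0.916% of all genes. IARS1, which charges isoleucine tRNA, lay at 336, 131, 171, 238 and 178 CPM after automatic denudation and 81.2, 42.1, 93.1, 38.9 and 95.99 CPM in vivo (log2 fold change 1.59 ± 0.39, edgeR adjusted p = 0.363). YARS1, for tyrosine, reached 245, 145, 165, 142 and 139 CPM against 71.4, 38.7, 86.95, 36.8 and 68.3 CPM, a log2 fold change of 1.47 ± 0.49. GARS1 overlapped through in vivo library 2 alone, with 484, 192, 325, 324 and 684 against 113, 378, 118, 128 and 147 CPM. IARS1 lay at 271 ± 58.1 CPM and YARS1 at 148 ± 105 CPM after manual denudation (SD, n = 5).

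The 13 genes of proline, glutamate and aspartate metabolism had 7 higher and 6 lower members and none called. PYCR1, a mitochondrial enzyme of the last step of proline synthesis, lay at 39.4, 22.6, 78.6, 22.3 and 31.1 CPM after automatic denudation against 1.52, 0, 5.26, 0 and 0.257 CPM in vivo (log2 fold change 4.77 ± 1.37, edgeR adjusted p = 0.542). Its groups did not overlap, and 2 in vivo libraries were at 0. The manual level of PYCR1 was 27.7 ± 10.3 CPM (SD, n = 5).

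**Figure D3:**
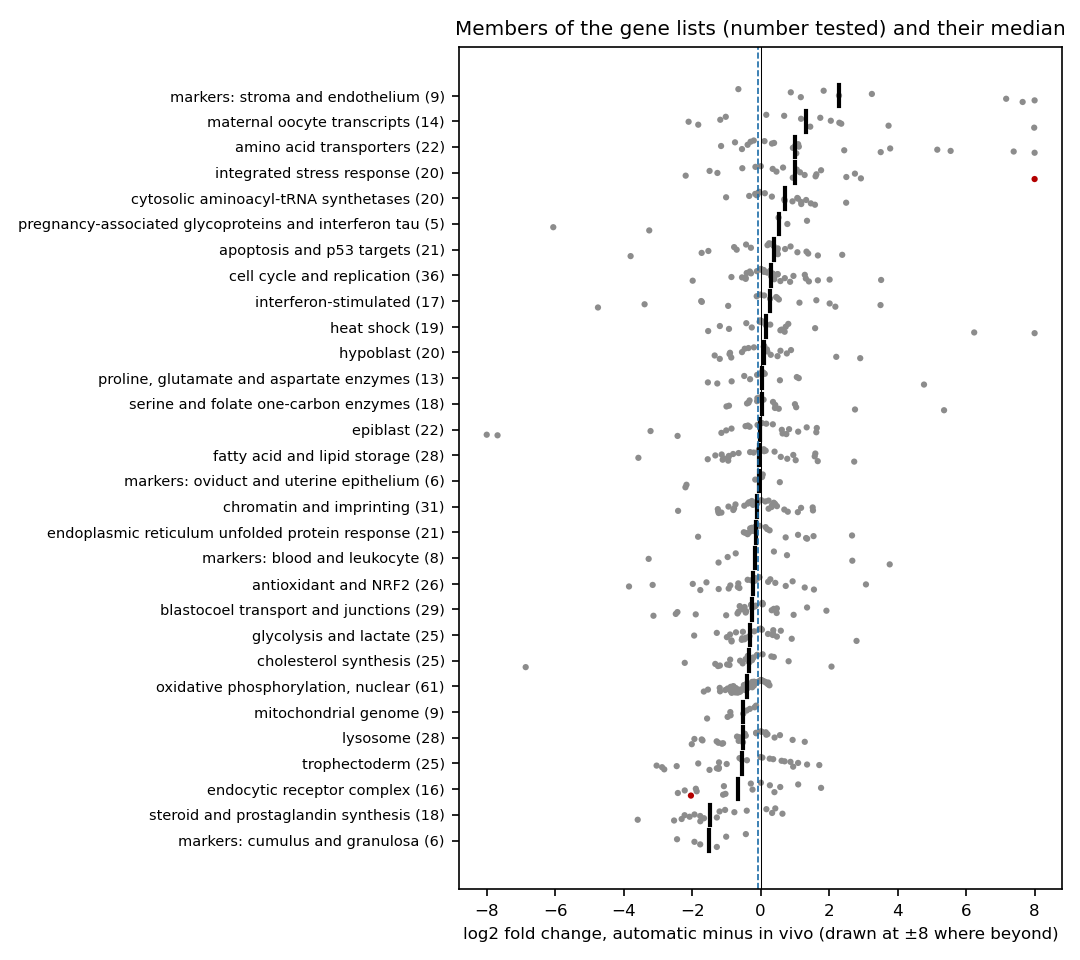
Log2 fold changes (automatic minus in vivo) of the tested members of each gene list, 1 dot per gene, with values beyond 8 in either direction drawn at 8. The sperm markers, with 2 genes tested, are not drawn. Red dots are the called genes, short bars the list medians and the dashed line the median of all genes, -0.06. Integrated stress response genes have a median of 0.995 and amino acid transporters of 1.004, and steroid and prostaglandin genes a median of -1.47.

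Of 25 trophectoderm genes tested, 10 were higher after automatic denudation (40%, beside 47.6% of all genes) and 15 lower, with none called. Their median was -0.56, or -0.32 without the low-detection libraries, and it lay nearer to 0 without automatic library 2 (-0.33), automatic library 4 (-0.23) or in vivo library 4 (-0.25). KRT18, a keratin of simple epithelia, lay at 2051, 2861, 3302, 1434 and 3209 CPM after automatic denudation and at 6560, 4448, 6857, 10017 and 8341 CPM in vivo. The groups did not overlap (log2 fold change -1.49 ± 0.35, edgeR adjusted p = 0.355). Its partner keratin KRT8 lay at 6995, 4947, 9834, 2123 and 5218 CPM against 21308, 7750, 12408, 13816 and 12503 CPM, overlapping through automatic library 3 and in vivo library 2. KRT19 was at 129.8, 268, 372, 237 and 311 CPM against 2532, 94.1, 905, 3719 and 2025 CPM, and in vivo library 2 was the lowest of all 10. KRT7, another keratin on the list, lay at 144, 28.6, 112, 91.7 and 91.2 CPM against 153, 1.68, 59.7, 31.2 and 60.6 CPM, with a higher mean after automatic denudation and with overlap. Reads of these keratins may be divided with related genes by the estimation of counts, so their levels are less certain.

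Transcription factors of the trophectoderm did not share one direction. TFAP2C lay higher after automatic denudation, at 148, 351, 168, 347 and 272 CPM against 93.3, 128, 111, 163 and 170 CPM in vivo, with overlap. VGLL1, a cofactor of TEAD factors, lay at 54.5, 185, 62.5, 138 and 71.1 CPM after automatic denudation against 175, 247, 154, 214 and 407 CPM in vivo. Its log2 fold change was -1.23 ± 0.44, or -1.96 without the low-detection libraries. GATA3 lay at 105, 8.53, 159, 25.5 and 70.3 against 123, 8.11, 106, 17.6 and 52.7 CPM and varied more within the groups than between them. CDX2 was low throughout, at 5.03, 8.84, 5.39, 0 and 1.75 against 8.904, 6.43, 5.36, 26.2 and 1.98 CPM. Its log2 fold change was -1.22, or -0.40 without the low-detection libraries. Of GATA3 and CDX2 neither was called (edgeR adjusted p = 1 for both), and the sign for GATA3 turned in some other fits. Fewer cells of a type and less RNA per cell cannot be told apart in these whole-embryo libraries.

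PAG2, a pregnancy-associated glycoprotein secreted by trophoblast, lay at 32.4, 0.818, 65.9, 125 and 57.1 CPM after automatic denudation and at 793, 263, 466, 711 and 448 CPM in vivo. All in vivo libraries lay above 260 CPM and all automatic libraries at or below 125 CPM, with automatic library 2 under 1 CPM (log2 fold change -3.25 ± 0.76, edgeR adjusted p = 0.335). The other pregnancy-associated glycoproteins and interferon tau genes were mostly filtered out, and of 5 tested 3 were higher and 2 lower, with a median of 0.52. Without the low-detection libraries 1 of 6 was higher and 5 were lower, with a median of -1.95 and PAG2 as the 1 called member. The median was also below 0 without automatic library 2 alone (-0.09). After manual denudation PAG2 lay at 221 ± 118 CPM (SD, n = 5). PAG2 belongs to a large family of near copies, which makes its level uncertain.

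The endocytic receptor list held 16 genes tested, with 10 lower and 6 higher after automatic denudation, a median of -0.66 and LRP2 as its 1 called member. The median was -0.36 without the low-detection libraries, -0.42 without in vivo library 4 and -0.44 without in vivo library 5. DAB2, a cytoplasmic adaptor of LRP2 and related receptors, lay at 460.3, 225, 584, 368 and 322 CPM after automatic denudation and 754, 1080, 732, 894 and 731 CPM in vivo. Its groups did not overlap (log2 fold change -1.10 ± 0.34, edgeR adjusted p = 0.645). Of 29 genes of blastocoel transport and junctions 17 were lower and 12 higher, with a median of -0.25, none called, and -0.07 without the low-detection libraries. That median lay between -0.33 and -0.09 on leaving out each library, nearest to 0 without automatic library 4. On this list PLS1, a bundler of microvillar actin, lay at 186, 220.4, 262, 142 and 292 CPM against 413, 259, 189, 749 and 605 CPM. SCIN, a calcium-dependent actin-severing protein, lay at 18.5, 0, 13.6, 32.7 and 24.3 CPM against 323, 24.03, 97.8, 162 and 174 CPM, overlapping through in vivo library 2 alone (log2 fold change -3.13 ± 1.01, edgeR adjusted p = 0.645).

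Steroid and prostaglandin synthesis genes were lower after automatic denudation for 14 of 18, with a median of -1.47 and none called. Without the low-detection libraries the median was -0.86, with 13 of 19 lower. CYP11A1, which starts steroid synthesis by cleaving the cholesterol side chain, lay at 18.1, 0.0779, 13.9, 4.04 and 6.92 CPM after automatic denudation and at 137, 119.9, 26.9, 95 and 139.8 CPM in vivo. The groups did not overlap (log2 fold change -3.59 ± 0.96, edgeR adjusted p = 0.486). HSD3B1, which acts on the product of that step, lay at 10.7, 55.01, 55.7, 19.3 and 14.4 CPM against 254, 32.7, 105, 350.04 and 154 CPM and overlapped through in vivo library 2 (log2 fold change -2.53 ± 0.67).

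Prostaglandin genes of the list did not all share one direction. PTGS2, the inducible cyclooxygenase, lay at 305, 241, 893, 806 and 284 CPM after automatic denudation and 741, 2732, 589, 1311 and 766 CPM in vivo, with overlap (log2 fold change -1.28 ± 0.48, edgeR adjusted p = 0.763). Its log2 fold change was -0.48 without the low-detection libraries. PTGES, a prostaglandin E synthase, lay at 14.3, 9.78, 28.8, 17.4 and 5.98 CPM against 123, 44.1, 74.1, 66.8 and 69.3 CPM, without overlap. PTGES3, a co-chaperone that also has prostaglandin E synthase activity, lay at 929, 641, 564, 1541 and 813 CPM against 484, 2185, 333, 453 and 542 CPM, so that in vivo library 2 was the highest of all 10 and the other 4 in vivo libraries lay below every automatic library. For AKR1B1, an aldo-keto reductase that can form prostaglandin F, levels were 125, 326, 142, 169 and 167 CPM against 897, 342, 295, 935 and 682 CPM (log2 fold change -1.76 ± 0.39, edgeR adjusted p = 0.243). Automatic library 2 lay above in vivo library 3 and made the only overlap for AKR1B1. Markers of cumulus and granulosa cells, which also make steroids and prostaglandins, summed to 36.0 to 166 CPM after automatic denudation and 60.6 to 248 CPM in vivo with PTGS2 left out. Their part in the values of these enzymes was not tested.

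**Figure D4:**
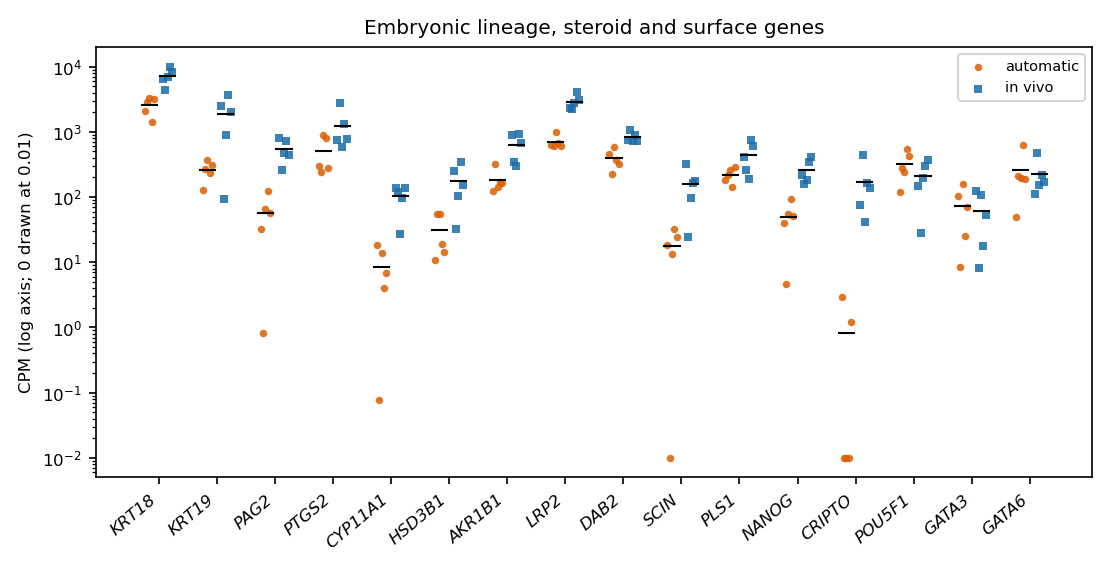
CPM on a log axis of lineage, steroid and apical surface genes in each automatic (circles) and in vivo (squares) library, with 1 point per library and the group mean as a line; values of 0 are drawn at 0.01. KRT18, PAG2, CYP11A1, LRP2, DAB2, NANOG and CRIPTO show no overlap between groups, while POU5F1, GATA3 and GATA6 overlap widely.

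Epiblast genes were evenly divided, with 11 of 22 higher, 11 lower and none called. NANOG, which sustains pluripotency, lay at 39.3, 4.68, 55.6, 94.4 and 51.2 CPM after automatic denudation and at 215, 161, 182, 346 and 414 CPM in vivo, without overlap (log2 fold change -2.43 ± 0.62, edgeR adjusted p = 0.441). CRIPTO, a co-receptor of the ligand NODAL, lay at 2.94, 0, 0, 0 and 1.21 CPM against 76.2, 444, 41.9, 163 and 138 CPM. Of 5 automatic libraries 3 held no CRIPTO counts, and every in vivo library held above 40 CPM (log2 fold change -7.68 ± 2.10, edgeR adjusted p = 0.511). Other pluripotency factors lay the other way or overlapped. POU5F1 lay at 118, 281, 239, 539 and 420.5 against 148, 27.8, 193, 299 and 373 CPM, a log2 fold change of 0.62 ± 0.54. SOX2 lay at 4.41, 38.1, 30.2, 88.5 and 11.7 against 6.34, 15.5, 16.5, 11.98 and 5.65 CPM, a log2 fold change of 1.62 ± 0.90. Neither POU5F1 nor SOX2 was called, and their groups overlapped. Without the low-detection libraries their log2 fold changes were 0.13 and 0.72.

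The hypoblast list of 20 genes had 11 higher, 9 lower and none called, and without the low-detection libraries 9 higher and 11 lower (median 0.10 and -0.16). GATA6, an early hypoblast factor, lay at 49.9, 213, 198, 634 and 186 CPM after automatic denudation and 110.2, 474, 152, 222 and 172 CPM in vivo, and the sign of its log2 fold change of 0.18 ± 0.56 turned in some other fits. No member of this list lacked overlap between the groups. Outside the list, NID2, a basement membrane protein, lay at 32.5, 85.6, 55.1, 145 and 33.9 against 13.8, 15.2, 18.1, 11.98 and 6.16 CPM without overlap (log2 fold change 2.43 ± 0.67, edgeR adjusted p = 0.511).

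Among genes of at least 5 CPM on average, the 5 automatic and 5 in vivo libraries did not overlap for 101 genes higher (1.18% of 8572) and 125 lower (1.46%) after automatic denudation. Of these, 88 and 105 differed by at least 2-fold, and 42 and 50 by at least 4-fold. Over all 11578 genes, rare ones included, the counts were 106 (0.916%) and 134 (1.16%). The genes with the smallest p among them came from several processes.

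PAGE4, of a cancer/testis gene family, had the smallest p after the called genes. It lay at 2.13, 13.7, 7.304, 17.03 and 9.85 CPM after automatic denudation and 70.03, 223, 122, 245 and 116 CPM in vivo (log2 fold change -3.96 ± 0.73, edgeR adjusted p = 0.117). FADS3, of the fatty acid desaturase family, lay at 144, 106, 246, 86.7 and 182 CPM against 990.3, 736, 603, 950.0 and 723 CPM (log2 fold change -2.39 ± 0.47). FXYD4, a regulator of the sodium pump that drives blastocoel filling, lay at 53.5, 125, 150.004, 33.6 and 78.5 CPM against 509, 234, 231, 737 and 545 CPM (log2 fold change -2.36 ± 0.48). All 3 had clear gaps between groups, the widest on the log scale for PAGE4.

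HEBP2, a heme-binding protein, was at or near 0 after automatic denudation, with 1.5, 0, 0.0726, 0.387 and 0 CPM, and at 37.3, 62.4, 9.12, 90.1 and 47.6 CPM in vivo (log2 fold change -6.96 ± 1.53, edgeR adjusted p = 0.243). SLC7A4, of the cationic amino acid transporter family, lay at 71.1, 104, 244, 104 and 176 CPM against 712, 603, 631, 1112 and 1033 CPM (log2 fold change -2.55 ± 0.58). LAP3, a leucine aminopeptidase, lay at 149.6, 59.6, 139, 31.03 and 52.6 against 472, 476, 259.8, 395 and 379 CPM. SLC7A4 thus lay lower while most amino acid transporters on the list lay higher. TCAF2 and GLIPR1 were also among the 12 with the smallest p, with log2 fold changes of -2.78 ± 0.59 and -3.36 ± 0.80.

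On the higher side RAB7B, a small GTPase of late endosomal traffic, lay at 113, 125, 134, 211 and 184 CPM after automatic denudation and 29.5, 41.5, 32.2, 11.1 and 35.1 CPM in vivo (log2 fold change 2.36 ± 0.49, edgeR adjusted p = 0.199). SINHCAF, a subunit of a histone deacetylase complex, lay at 888, 666, 521, 767 and 716 CPM against 324, 389.7, 255, 308 and 303 CPM (log2 fold change 1.17 ± 0.29). NUDT21, which acts in 3′ end cleavage of messenger RNA, lay at 236, 403, 177, 195 and 221 against 63.1, 4.29, 82.6, 48.2 and 111 CPM (log2 fold change 1.99 ± 0.55). In vivo library 4 was the lowest for RAB7B and in vivo library 2 for NUDT21. PRDX4, a peroxidase of the endoplasmic reticulum, lay at 133, 235, 149.98, 433 and 152 against 75.7, 83.2, 56.4, 93.4 and 66.4 CPM (log2 fold change 1.56 ± 0.43).

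SYT4, a synaptotagmin, was at 0 in all in vivo libraries and at 4.72, 0.0390, 8.47, 13.4 and 29.2 CPM after automatic denudation, at least 578-fold higher against a floor of 3 counts over the in vivo group. Automatic library 5 was the highest, and without it the bound was 345-fold. Automatic library 2 was close to 0.

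**Figure D5:**
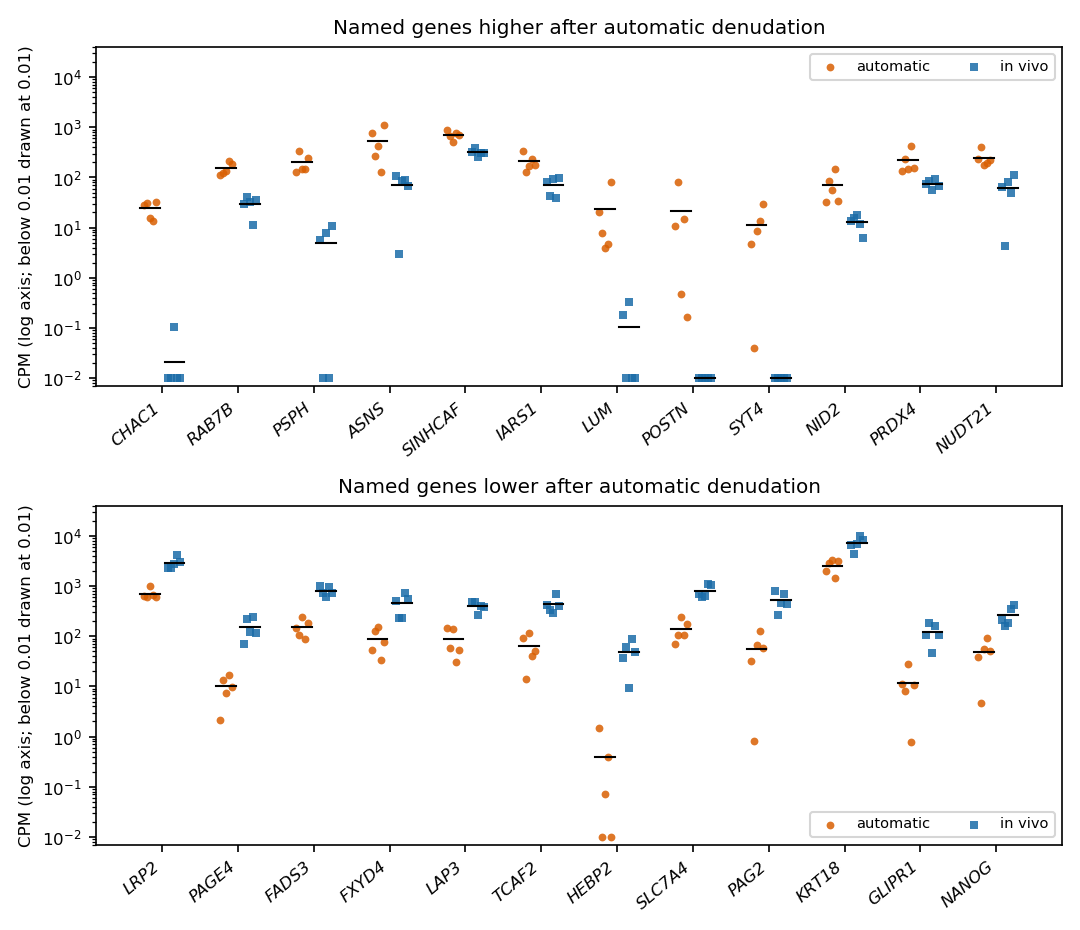
CPM on a log axis of the genes with the smallest p among those whose groups did not overlap, in each automatic (circles) and in vivo (squares) library, with 1 point per library and the group mean as a line; values below 0.01, 0 included, are drawn at 0.01. The upper panel shows 12 genes higher and the lower panel 12 genes lower after automatic denudation, and only CHAC1 and LRP2 were called.

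For 14 genes of at least 5 CPM, the automatic libraries also lay outside all 5 manual libraries in the same direction, 5 higher (0.0583% of 8572) and 9 lower (0.105%). Both comparisons use the same automatic libraries. The 5 higher genes were RAB7B, TPM1, ZNF300, VMP1 and ZAP70, and the 9 lower ones FADS3, FXYD4, HEBP2, KRT18, CCL26, CYP11A1, SLC39A2, ZNF451 and JTB. ZNF300, a zinc finger gene, lay at 53.8 ± 34.9 CPM after automatic denudation, 3.09 ± 4.16 in vivo and 2.91 ± 5.34 after manual denudation (SD, n = 5 each). CCL26, a chemokine, had 4.05 ± 2.904 CPM after automatic denudation, 65.3 ± 29.5 in vivo and 12.8 ± 1.28 after manual denudation. None of the 14 was called against either group, and no gene at all (0%) was called between automatic and manual libraries by edgeR's quasi-likelihood test, where 171 genes (1.48%) had an unadjusted p under 0.05. Between those groups DESeq2 called 9 genes, limma-voom with quality weights 1 and limma-voom 0.

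Nuclear genes of oxidative phosphorylation lay mostly lower after automatic denudation, 49 of 61 with a median of -0.40 and none called. That median was -0.12 without in vivo library 2, -0.54 to -0.33 on leaving out any other library, and -0.28 without the low-detection libraries. In vivo library 2 held 3869 CPM of NDUFB4, a complex I subunit, where the other 9 libraries held 104.5 to 863.0 CPM. Single genes of the list had log2 fold changes of -1.66 to 0.26. ATP5MC2 and ATP5MC3, which encode the same ring subunit of ATP synthase, had log2 fold changes of -0.85 ± 0.29 and -0.68 ± 0.28 with overlap. NDUFV1, a complex I subunit, lay at 329, 241, 334, 186 and 234 CPM against 511, 362, 517, 392 and 436 CPM, without overlap (log2 fold change -0.75 ± 0.33, edgeR adjusted p = 0.9104). Of 25 glycolysis and lactate genes 15 were lower, among them LDHB, a lactate dehydrogenase subunit, with -0.85 ± 0.34. The median of that list was -0.33, and 0.15 without the low-detection libraries.

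Cholesterol synthesis genes were lower for 20 of 25, with a median of -0.34 and none called, and for 23 of 25 with a median of -0.82 without the low-detection libraries. On leaving out each library the median lay between -0.67 (without automatic library 2) and -0.20 (without automatic library 5). IDI1, an isomerase of the path, lay at 23.8, 92.6, 37.03, 18.9 and 24.1 against 62.8, 132, 33.7, 149 and 88.8 CPM, and STARD4, a sterol carrier, at 62.1, 56.5, 65.3, 222 and 48.6 against 26.7, 54.2, 19.7, 6.72 and 1.06 CPM. IDI1 overlapped, and STARD4 lay the other way, highest in automatic library 4. Fatty acid genes were divided, 12 higher and 16 lower of 28. ACSL4, which activates long-chain fatty acids, lay at 120.05, 50.3, 29.97, 114 and 81.6 CPM after automatic denudation against 13.2, 0.612, 25.6, 13.4 and 6.64 CPM in vivo without overlap (log2 fold change 2.73 ± 0.76). FABP3, a fatty acid carrier, and ACADM, of mitochondrial oxidation, had log2 fold changes of -0.95 ± 0.36 and 1.67 ± 0.47 with overlap.

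Lysosomal genes were lower for 19 of 28 (median -0.51) and antioxidant genes for 18 of 26 (median -0.23), with none called in either list. The lysosomal median lay between -0.62 and -0.19 on leaving out each library, nearest to 0 without in vivo library 4, and the antioxidant median reached -0.39 without the same library. CTSH, a cathepsin, lay at 172, 213, 238, 52.7 and 184 CPM after automatic denudation against 1100, 226, 464, 927 and 753 CPM in vivo, and CD63, a tetraspanin of late endosomes, at 143, 195, 224, 154 and 180.1 against 437, 251, 284, 463 and 529 CPM. CD63 did not overlap, and CTSH overlapped through in vivo library 2 (log2 fold changes -1.13 ± 0.39 and -2.01 ± 0.57). GPX1, a glutathione peroxidase, had a log2 fold change of -1.23 ± 0.34. IFI30, a lysosomal thiol reductase, was listed with the interferon-stimulated genes and not with the lysosomal genes. It lay at 5.19, 0, 5.35, 0 and 7.91 CPM against 166, 0, 79.9, 177 and 75.7 CPM, absent from in vivo library 2 and from automatic libraries 2 and 4, all low-detection libraries (log2 fold change -4.75 ± 1.55, edgeR adjusted p = 0.645).

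Cell cycle and replication genes were higher after automatic denudation for 26 of 36, with a median of 0.29 and none called. RRM2, a subunit of ribonucleotide reductase, and BUB1B, of the spindle checkpoint, had log2 fold changes of 0.86 ± 0.30 and 1.41 ± 0.53 with overlap. Of 21 apoptosis and p53 target genes 14 were higher (median 0.38), and of 19 heat shock genes 12 (median 0.16). The apoptosis median was 0.095 without in vivo library 2 and 0.58 without automatic library 2, and the heat shock median 0.34 without in vivo library 4. HSPA9, a mitochondrial chaperone, had a log2 fold change of 0.70 ± 0.32. Of 21 genes of the endoplasmic reticulum unfolded protein response, 9 were higher and 12 lower (median -0.15), and without the low-detection libraries 12 higher and 9 lower (median 0.10). DNAJC3 and DNAJB9, co-chaperones of this response, had log2 fold changes of 1.36 ± 0.52 and 1.33 ± 0.51, or 0.84 and 0.79 without the low-detection libraries.

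Chromatin and imprinting genes were divided, 15 higher and 16 lower of 31. DNMT3A, a de novo DNA methyltransferase, lay at 504, 541, 547, 171 and 662 CPM after automatic denudation and 1342, 1170, 926, 1244 and 991 CPM in vivo, without overlap (log2 fold change -1.23 ± 0.36, edgeR adjusted p = 0.573). Of 14 maternal oocyte transcripts 10 were higher, with a median of 1.31, or 2.04 without in vivo library 3. KIT, a receptor found in oocytes, lay at 331, 136, 332, 276 and 204 against 93.7, 62.5, 213, 18.7 and 80.4 CPM and overlapped (log2 fold change 1.45 ± 0.50). Of the junction genes, F11R had a log2 fold change of 0.96 ± 0.37. Of 17 interferon-stimulated genes 10 were higher, with a median of 0.27 and none called. Without the low-detection libraries the median was -0.33, and IFI30, a member of this list, was its 1 called gene, lower after automatic denudation.

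Markers of cells other than the embryo were measured in both groups. The cumulus and granulosa list had 6 of 6 tested genes lower after automatic denudation (median -1.52, none called), and 8 of 8 without the low-detection libraries (median -0.70). It summed to 328 to 1057 CPM after automatic denudation and to 752 to 2792 CPM in vivo. PTGS2, also a trophectoderm gene, made most of that sum, and SERPINE2 led the remainder. FOXL2, a defining granulosa marker, was at 0 in all 10 libraries.

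Stromal and endothelial markers lay the other way, higher for 8 of 9 genes (median 2.29, none called). The median was 6.86 without in vivo library 3 and 1.39 without the low-detection libraries, where 9 of 10 were higher. Their sums were 128 to 435 CPM after automatic denudation and 9.88 to 108 CPM in vivo, led by PECAM1, while CDH5, an endothelial cadherin, was at 0. POSTN, a matrix protein, lay at 10.97, 80.8, 0.484, 14.5 and 0.161 CPM after automatic denudation and at 0 in all in vivo libraries, at least 1107-fold higher against a floor of 3 counts over the group. Automatic library 2 made most of this level, and without it the bound was 338-fold. LUM, a matrix proteoglycan, lay at 20.8, 7.64, 3.85, 4.65 and 79.7 against 0.181, 0, 0.327, 0 and 0 CPM (log2 fold change 7.65 ± 1.90, edgeR adjusted p = 0.387). Blood markers summed to 28.8 to 304 and 49.5 to 145 CPM, with PTPRC and S100A12 at 0. Oviduct markers summed to 30.3 to 45.8 and 1.83 to 77.5 CPM with FOXJ1 at 0, and sperm markers to 0.75 to 8.56 and 0 to 24.5 CPM with PRM3 and ODF1 at 0. After manual denudation POSTN lay at 103 ± 138 CPM and LUM at 65.2 ± 61.2 CPM (SD, n = 5). The part of other cells in these values was not tested.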

How the data were processed

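Estimated counts, whole numbers without scaling, were deposited by the authors in 1 table. Per the submitters' processing notes the tools were FastQC, fastp and kallisto, with no versions. Per the labels' protocols, libraries were stranded poly(A) libraries with molecular identifiers. Which transcripts, genome build and use of identifiers underlie the counts is not given in the sources used here. No coordinates are printed, and genes with close copies are less certain. Column names were matched with the labels' library names. RefSeq (ARS-UCD2.0) holds the symbols of 17059 of the 17259 genes. A line without a gene name was left out, and it held 0% of the counts. Any 2 libraries of a group differed by more than sampling noise.

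Counts were tested in R 4.3.3 with edgeR 4.0.16 (robust estimateDisp, glmQLFit and glmQLFTest), using TMM scaling and filterByExpr, which kept 11578 genes. Rounding changed 0 values. One model with a mean for each group was fitted to all 15 libraries. The SE was taken as |log2 fold change| over the root of F, and CPM follow TMM-scaled sizes. Distances used log2 CPM with a prior count of 2, and exact permutations took every split. The test was tried on simulated counts with the spread of these data. It called 8 of 104 genes changed by 2 on the log2 scale and 32 of 96 changed by 4. Of 10868 unchanged genes it called 0. Most changed genes were thus missed. Alternatives were other scalings, filters and covariates, limma 3.58.1 voom, DESeq2 1.42.0 and leaving out libraries.

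The groups compared and the 31 gene lists (753 symbols, 706 in the table, 610 tested) were chosen with earlier results of these data known. Named were called genes, per direction the 12 smallest p among genes of at least 5 CPM without overlap, up to 3 members of each list with unadjusted p under 0.05 and at least 5 CPM, and CDX2, GATA3, KRT18, POU5F1, NANOG, SOX2, GATA6, PAGE4, CHAC1, LRP2, PSPH, ASNS and PAG2. Chosen after their values were seen were PHGDH, PSAT1, GARS1, KRT8, KRT7, TFAP2C, PTGES, PTGES3, NDUFB4 and, outside the rule, the genes that also stood apart from manual libraries. A few genes that the rule takes are not reported here. The low-detection limit of 9000 genes was set with the depths known.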

Additional observations from a re-analysis of the deposited data

Results flagged for a closer look

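In 17 of 146 sets of 5 values examined (2 groups for each of 71 genes, and the group measures), 1 library lay far from the other 4 by Dixon's criterion at a gap of more than 0.71 of the range. Chance gives about 1 in 20, or 7.3 sets. Of the 17, 13 lay in a low-detection library.

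Automatic library 4 was farthest from its group for 5 genes. It was lowest for CTSH (52.7 CPM), DNMT3A (171.2 CPM), SLC1A4 (0.0553 CPM) and SLC1A5 (6.028 CPM), and highest for STARD4 (221.9 CPM). Automatic library 2 was lowest for PAG2 (0.8182 CPM) and for SCIN (0 CPM). Automatic library 3 was highest for LRP2 (1005 CPM), still below every in vivo library.

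In vivo library 2 was lowest in its group for ASNS (2.985 CPM), NUDT21 (4.286 CPM) and IFI30 (0 CPM). In vivo library 4 was lowest for RAB7B (11.11 CPM) and F11R (184.5 CPM) and highest for ATF4 (576.7 CPM). In vivo library 3 was lowest for CYP11A1 (26.94 CPM) and highest for CHAC1 (0.1023 CPM, with the other 4 at 0). HSPB8, a small heat shock protein, was highest in in vivo library 1 (0.7477 CPM, with the other 4 at 0). In such sets of CHAC1 and HSPB8, with 4 equal values, any other value meets the criterion.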

How the results depend on the processing

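The count of 2 called genes for automatic against in vivo depended on the fit. It was 0 with library size alone, 1 without a filter and 1 with only automatic and in vivo libraries, 9 with limma-voom, 95 with limma-voom with quality weights, 87 with DESeq2 and 9 without the low-detection libraries. Leaving out each library gave 0 to 4. Under library size alone the all-gene median went from -0.06 to 0.12 on the log2 scale, and the share of genes higher after automatic denudation from 47.6% to 55.2%. LRP2 was called in 9 of 11 other fits and CHAC1 in 7. Some named genes not called in the main fit were called in some of these fits. Among them were PSPH and PAGE4 in 4, CRIPTO, HEBP2, TCAF2, FADS3 and PAG2 in 3, and NANOG in 2. Others, such as DAB2, GPX1, SOX2, POU5F1 and GATA3, were called in none. With 1 library left out, LRP2 was called in 6 of 15 fits (without automatic library 3, in vivo library 2 or 3, or manual library 1, 2 or 3) and CHAC1 in 2 (without in vivo or manual library 3). Automatic against manual had 1 called gene with limma-voom with quality weights, 9 with DESeq2 and 1 without the low-detection libraries, against 0.

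With the replicate number as a block, 7 genes were called, all lower after automatic denudation (FADS3, LRP2, PAGE4, SLC34A2, SLC7A4, TCAF2 and TMSB10). Deviations of same-numbered libraries correlated at 0.0437 to 0.378 (across genes), not all above 0.1, and 1 of 5 automatic libraries correlated best with its own number, so the numbers were not taken to pair libraries.

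The global distance turned positive without a filter (0.00242), without the low-detection libraries (0.113), with 1 minus Pearson correlation (0.01895) and after centring within the replicate number (0.294), which forces libraries of a number into opposite positions. Leaving out each library gave -0.0658 to 0.0626. Genes detected turned to 13.2 after thinning to the smallest library and 271.3 without the low-detection libraries, with -709 to 625 on leaving out each library. Mitochondrial share turned to 0.28 points without the low-detection libraries, with -2.28 to 0.26 on leaving out each library. GATA3 turned to -0.0144 with limma-voom, and lay between -0.228 (without automatic library 3) and 0.689 on leaving out each library. GATA6 turned to -0.41 with quality weights and -0.0769 with the replicate block, and lay between -0.47 (without automatic library 4) and 0.612 on leaving out each library. Of 779 log2 fold changes of named genes under the other fits, 697 kept their direction and side of the threshold. A further 73 became called, 6 lost their call and 3 reversed. With 1 library left out, 1039 of 1065 kept both, 2 became called, 22 lost their call and 2 reversed. For all named genes but CHAC1 and LRP2, keeping the side of the threshold meant staying uncalled. The causes were not tested.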
